A study of Mus musculus with 6 samples.

Results

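The interferon-inducible GTPases described here are 10 mouse genes of 3 families: the immunity-related GTPases (IRG) Tgtp1, Tgtp2, Iigp1, Irgm1, Irgm2 and Igtp, the guanylate-binding proteins (GBP) Gbp2 and Gbp7, and the very large GTPases Gvin1 and Gm4070. The members were taken by gene symbol, and the list was selected on the expression differences between the BML-260 and vehicle libraries described here, so those differences are given below as a description. Counts of members past a threshold only place them in the fit over all genes and are no evidence for a difference. All 10 members were found among the 45777 genes of the count table, and all 10 were among the 16188 genes with enough counts to be tested. The RNA came from the tibialis anterior (TA), a fast muscle of the lower leg, of male C57BL/6J mice labelled as 24 months old, which received either vehicle (DMSO and Tween 80, 3 libraries) or BML-260 at 5 mg/kg by intraperitoneal injection each day for 1 month (3 libraries). BML-260 is the small molecule with which the study targets the dual-specificity phosphatase DUSP22. For these mice the study's methods give a range of ages that starts at the labelled age, and its results give an older age. Both groups were aged, the labels name no transgene, infection or other challenge in either, and no young or uninjected group is used here. Nothing in the labels ties a library to a named animal, so the p-values below measure the spread between these libraries. The libraries were made from whole muscle, in which fewer cells of a type and less RNA per cell cannot be told apart.

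Interferon-inducible GTPases are part of cell-autonomous defence. Interferon gamma binds its receptor, the kinases JAK1 and JAK2 are activated, and the signal reaches promoters through gamma-activated sites (GAS), while interferon regulatory factors bind interferon-stimulated response elements (ISRE). IRG and GBP proteins then gather on the vacuoles of intracellular pathogens and help to break them, with the ATG conjugation machinery guiding where they load. IRG proteins with the usual lysine in the nucleotide-binding P-loop act as effectors, and those with a methionine there, Irgm1, Irgm2 and Igtp, sit on the cell's own membranes and hold the effectors inactive.

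The promoters of 7 of the 10 members were found in the RefSeq table for GRCm38.p6, and they are shown because each holds at least 1 of the 2 interferon elements. For Iigp1, Gvin1 and Gm4070 no promoter is shown. Each line gives the 120 bases before the annotated start, 5′ to 3′ on the gene's strand, with GAS letters (TTCNNNGAA) and ISRE letters (GAAANNGAAA, searched on both strands) in capitals. The GAS letters read the same on both strands.
Tgtp1, chr11:48992247-48992366, minus strand: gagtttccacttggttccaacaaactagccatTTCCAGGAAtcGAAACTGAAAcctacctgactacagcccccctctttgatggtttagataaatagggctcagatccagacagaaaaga
Tgtp2, chr11:49064213-49064332, minus strand: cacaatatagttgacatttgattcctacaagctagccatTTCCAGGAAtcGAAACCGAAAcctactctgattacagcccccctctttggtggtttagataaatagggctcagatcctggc
Igtp, chr11:58199436-58199555, plus strand: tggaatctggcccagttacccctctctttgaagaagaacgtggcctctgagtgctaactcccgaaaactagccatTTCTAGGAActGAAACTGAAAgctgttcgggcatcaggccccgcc
Irgm1, chr11:48871421-48871540, minus strand: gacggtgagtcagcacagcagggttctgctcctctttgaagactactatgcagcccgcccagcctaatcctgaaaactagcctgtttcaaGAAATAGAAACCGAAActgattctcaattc
Irgm2, chr11:58214857-58214976, plus strand: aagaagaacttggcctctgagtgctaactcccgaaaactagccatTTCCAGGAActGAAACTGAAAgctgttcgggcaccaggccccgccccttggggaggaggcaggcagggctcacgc
Gbp2, chr3:142620543-142620662, plus strand: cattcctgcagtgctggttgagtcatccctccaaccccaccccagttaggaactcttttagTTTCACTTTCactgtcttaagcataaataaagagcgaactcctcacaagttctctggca
Gbp7, chr3:142530216-142530335, plus strand: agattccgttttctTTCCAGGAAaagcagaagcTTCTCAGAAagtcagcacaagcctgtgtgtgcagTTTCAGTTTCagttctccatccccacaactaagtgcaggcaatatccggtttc

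The ISRE letters occurred in 7 of 7 member promoters and the GAS letters in 5 of 7 when the full window, from 250 bases before to 50 after the start, was searched. Over all 32851 promoters of that length, 3.44% held the ISRE letters, 8.30% held the GAS letters and 0.454% held both. In Tgtp1, Tgtp2, Igtp and Irgm2 the ISRE began 11 bases after the first base of the GAS. That spacing, which was picked out after these sequences were read, occurred in 5 of the 32851 promoters (0.0152%), and the fifth belonged to Gm12185, another IRG gene. Irgm1 held 2 ISRE matches that overlap by 4 bases and no GAS match, and Gbp2 and Gbp7 held the ISRE on the opposite strand. The Tgtp1 and Tgtp2 windows are near copies of each other, as are those of Igtp and Irgm2, so they are not independent examples. A match describes letters in a window and not a bound site.

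The P-loop, the stretch that grips the phosphates of the nucleotide, separates the effector and regulator IRG genes. It was found by translating the longest reading frame of the GENCODE transcripts of each member, and 30 coding bases around it (GRCm38, 5′ to 3′ on the gene's strand) are shown with the deciding codon in capitals, AAG or AAA for lysine and ATG for methionine.
Tgtp1, chr11:48987664-48987693: acaggggaaacaggcgcagggAAGtccact
Tgtp2, chr11:49059531-49059560: acaggggaaacaggcgcagggAAGtccact
Irgm1, chr11:48866758-48866787: actggggactctggcaatggcATGtcatct
Irgm2, chr11:58219692-58219721: actggggactctggcaatggcATGtcatct
Igtp, chr11:58206272-58206301: actggggactctggcaatggcATGtcatct
Gbp2, chr3:142623823-142623852: gtgggcctctaccgcacaggcAAAtcctac
Gbp7, chr3:142534652-142534681: gtaggactataccgtacgggaAAAtcctac
Gvin1, chr7:106160752-106160781: cttggcctgcagagctcagggAAGtctacc
Gm4070, chr7:105899335-105899364: cttggcctgcagagctcagggAAGtctacc

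Irgm1, Irgm2 and Igtp carried the same 30 bases, with methionine at codons 89, 89 and 97. Tgtp1 and Tgtp2 were identical over the stretch, as were Gvin1 and Gm4070. Iigp1 also encodes lysine, at codon 82, and its sequence is not shown. Among the other IRG and GBP genes with a translated transcript, none had the methionine. Over whole proteins the Irgm1, Irgm2 and Igtp sequences were 46.6% to 48.9% identical to each other, Tgtp1 and Iigp1 were 42.7% identical, and Gbp2 and Gbp7 were 48.4% identical.

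Library totals ran from 39522890 to 56998875 counts. Vehicle replicate 3 stood apart from the other libraries: its scaling factor was 1.20 against 0.914 to 1.02 in the other 5, its summed muscle fiber markers were the lowest, and its macrophage and neutrophil markers were the highest. Its values stand in every group mean and ratio below, and several log2 fold changes and counts are also given without it. Over all tested genes edgeR's quasi-likelihood test, adjusted by the Benjamini-Hochberg method, called 0 of 16188 at an adjusted p under 0.05 (0.0%), 966 at an unadjusted p under 0.05, and DESeq2 called 84 at an adjusted p under 0.05. At the looser threshold used below, a 1.3-fold or larger difference together with an unadjusted p under 0.05, 786 genes were lower with BML-260 (4.86%) and 145 were higher (0.896%).

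All 10 members had lower mean levels in the BML-260 libraries. The median of their log2 fold changes was -0.70, against -0.0039 over all tested genes. The range ran from -1.51 for Iigp1 and Tgtp1 to -0.22 for Irgm1. At the fold and p threshold 8 of the 10 were lower, which follows from how they were chosen and is set beside the 4.86% of all genes only as a description. Described in the same way, 0 of the 10 had an adjusted p under 0.05 in edgeR, while 8 had an unadjusted p under 0.05. In DESeq2 the adjusted p was under 0.05 for 5 of the 10 (Tgtp1, Tgtp2, Iigp1, Gvin1 and Gm4070) and for 0.449% of all genes in the lower direction, and in limma on log2(TPM + 1) for 0 of the 10, with 7 at an unadjusted p under 0.05. In that limma fit 446 of 16800 genes passed the fold and p threshold in either direction, and 7 of the 10 members did. Nothing about the members is read from these counts.

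**Figure D1:**
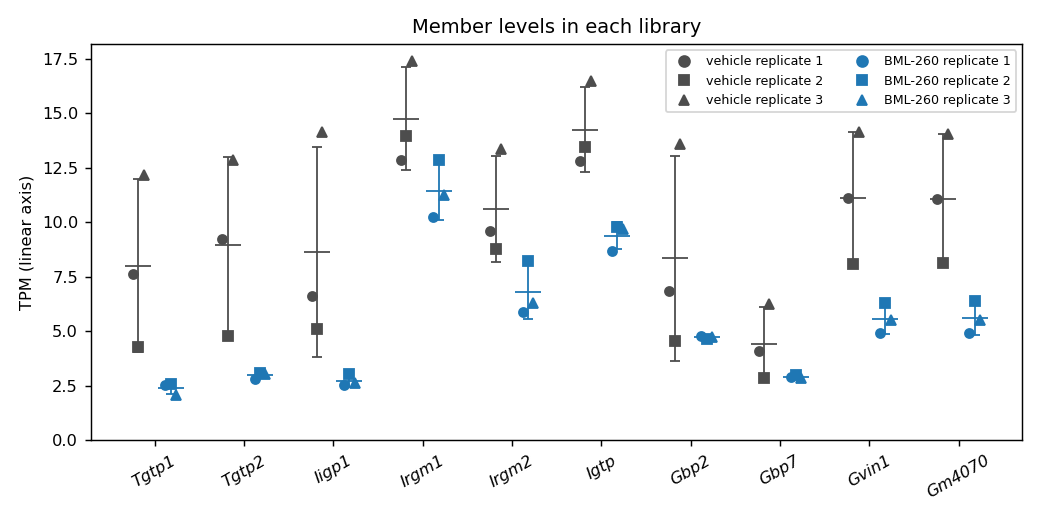
Level of each member in each library, in TPM on a linear axis, with vehicle in grey and BML-260 in blue. Horizontal marks are group means and bars are SD (n = 3). The 3 vehicle libraries spread more widely than the 3 BML-260 libraries in all 10 members, and vehicle replicate 3 is the highest point in all 10. The share of all genes with either pattern was not computed.

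Among the members, the 3 effector IRG genes differed most between the groups. Tgtp1 and Tgtp2 encode the T cell-specific GTPase, also called Irgb6, which loads early onto parasite vacuoles, and lie at chr11:48985329-48992246 and chr11:49057196-49064212. Levels are given as TPM, the deposited abundance scaled for transcript length and library total, or as CPM, counts scaled for library size only. Tgtp1 stood at 7.61, 4.27 and 12.2 TPM in vehicle replicates 1, 2 and 3 and at 2.53, 2.58 and 2.08 TPM in BML-260 replicates 1, 2 and 3. The lowest vehicle library was above the highest BML-260 library, and the log2 fold change from counts was -1.51 (SE 0.26). Tgtp2 stood at 9.23, 4.78 and 12.8 TPM with vehicle and at 2.82, 3.09 and 3.04 TPM with BML-260, without overlap, and its log2 fold change was -1.38 (SE 0.24).

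Iigp1, the best studied effector of the family, also called Irga6, lies on another chromosome, at chr18:60373616-60392634. Its levels were 6.63, 5.11 and 14.1 TPM in the vehicle libraries and 2.52, 3.03 and 2.61 TPM in the BML-260 libraries. The groups did not overlap, and the log2 fold change was -1.51 (SE 0.27). Without vehicle replicate 3 the log2 fold changes of Iigp1, Tgtp1 and Tgtp2 were -1.18, -1.31 and -1.25. With all 6 libraries, the mean TPM with BML-260 was 0.299 of the vehicle mean for Tgtp1, 0.333 for Tgtp2 and 0.315 for Iigp1.

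The 3 regulator IRG genes were the most abundant IRG members and had smaller log2 fold changes than the effectors, a contrast that was not tested. Igtp, also called Irgm3 and found on lipid droplets and the endoplasmic reticulum, lies at chr11:58199556-58207592 beside Irgm2 at chr11:58214977-58222783. Igtp stood at 12.8, 13.4 and 16.5 TPM with vehicle and at 8.70, 9.79 and 9.68 TPM with BML-260. Its groups did not overlap, and its log2 fold change was -0.45 (SE 0.14). Irgm2, a Golgi-associated member, stood at 9.61, 8.79 and 13.4 TPM with vehicle and at 5.88, 8.24 and 6.31 TPM with BML-260, again without overlap, with a log2 fold change of -0.47 (SE 0.15).

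Irgm1, which is linked to mitochondria, lysosomes and mitophagy, lies at chr11:48865245-48871420 and showed the smallest difference of the 10. Its levels were 12.9, 13.97 and 17.4 TPM with vehicle and 10.2, 12.8 and 11.2 TPM with BML-260. The log2 fold change was -0.22 (SE 0.14). In TPM the highest BML-260 library lay just under the lowest vehicle library, and in CPM after edgeR's scaling the groups overlapped, at 17.2, 19.9 and 16.5 against 14.9, 16.6 and 14.6.

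Gbp2 and Gbp7 are guanylate-binding proteins, larger GTPases that assemble into coats on pathogen membranes, and lie close together at chr3:142620663-142638008 and chr3:142530336-142550151. Gbp2 stood at 6.86, 4.55 and 13.6 TPM with vehicle and at 4.78, 4.64 and 4.73 TPM with BML-260. Vehicle replicate 2 lay below all 3 BML-260 libraries, so the groups overlapped, and the other 2 vehicle libraries lay above them. The log2 fold change was -0.58 (SE 0.25), and it was -0.29 without vehicle replicate 3. Gbp7 stood at 4.08, 2.86 and 6.25 TPM with vehicle and at 2.89, 3.00 and 2.85 TPM with BML-260, with overlap, and its log2 fold change was -0.39 (SE 0.18), or -0.27 without vehicle replicate 3.

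Gvin1 and Gm4070 are very large GTPases, whose proteins are several times the length of the IRG proteins (2427 residues against 407 to 423) and whose function is little known. They lie at chr7:106156535-106215340 and chr7:105895118-105953967. Gvin1 stood at 11.1, 8.07 and 14.1 TPM with vehicle and at 4.91, 6.31 and 5.50 TPM with BML-260. Gm4070 stood at 11.1, 8.13 and 14.1 TPM with vehicle and at 4.90, 6.39 and 5.51 TPM with BML-260. In both genes the groups were apart, and the log2 fold changes were -0.82 (SE 0.15) and -0.81 (SE 0.15).

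Without vehicle replicate 3, all 10 members were still lower, at a median of -0.65 on the log2 scale, and 7 were past the fold and p threshold. In that fit 482 of all 16502 tested genes were lower at the threshold. In CPM the BML-260 libraries were all below the vehicle libraries in 7 of the 10 members, against 6.91% of all tested genes, and Irgm1, Gbp2 and Gbp7 overlapped. In TPM they were below in 8 of the 10, and the share over all genes was not computed on that scale. Which vehicle library was highest depended on the scale: it was replicate 3 for 10 of 10 members in TPM, but for 4 of 10 in CPM, where replicate 1 was highest for 4 and replicate 2 for 2. Vehicle replicate 2 was the lowest vehicle library for 8 of the 10 on either scale. Shares over all genes were not computed for these orders of the vehicle libraries, so they are not read as particular to the members. The SD over the vehicle libraries was larger than that over the BML-260 libraries for 10 members in TPM and 9 in CPM. The share of all genes with a larger vehicle SD was not computed, so this is not read as particular to the members.

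**Figure D2:**
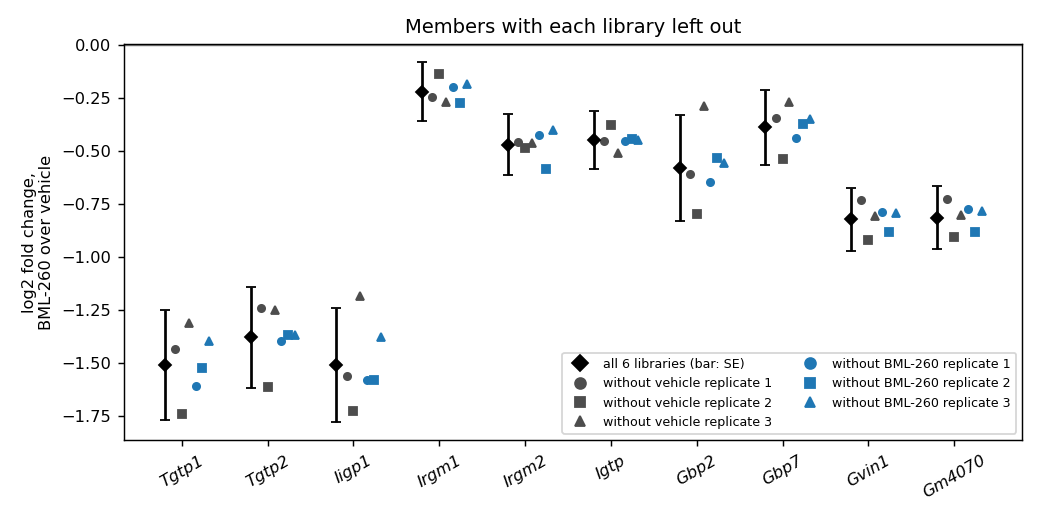
Log2 fold change of each member, BML-260 over vehicle, from all 6 libraries (black diamonds, bars are SE) and with each library left out (grey for vehicle, blue for BML-260). All points lie below 0, and the points of Gbp2 range from -0.80 without vehicle replicate 2 to -0.29 without vehicle replicate 3.

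The order of the members' levels could be read more finely in the BML-260 libraries, which spread less. By mean TPM with vehicle, Irgm1 (14.8 ± 2.37, SD, n = 3) and Igtp (14.2 ± 1.97) were highest and Gbp7 (4.40 ± 1.72) was lowest. No member had all 3 vehicle libraries above those of the next gene in the order. With BML-260, the lowest library of Irgm1 (11.4 ± 1.32) was above the highest of Igtp (9.39 ± 0.60), and the same held for Igtp over Irgm2 (6.81 ± 1.25). The libraries of Irgm2, Gm4070 and Gvin1 overlapped in range. Tgtp2, Gbp7, Iigp1 and Tgtp1, at 2.98, 2.92, 2.72 and 2.40 TPM, each overlapped the next gene in that order, while every library of Tgtp2 and Gbp7 was above every library of Tgtp1. Gbp2 (4.72 ± 0.07) lay between these groups. The effectors Tgtp1, Tgtp2 and Iigp1 held 4.27 to 14.1 TPM over the vehicle libraries and 2.08 to 3.09 TPM over the BML-260 libraries, while the regulators Irgm1, Irgm2 and Igtp held 8.79 to 17.4 TPM and 5.88 to 12.8 TPM.

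Near copies limit how far single genes can be told apart. The coding sequences of Tgtp1 and Tgtp2 differ at 4 of 1248 bases (G270C, C408T, C729T and C735A, Tgtp1 base first, counted from the first base of the start codon), and none of the 4 changes the protein. Those of Gvin1 and Gm4070 differ at 3 of 7284 bases (G1805T, G4904A and C7075T, Gvin1 base first), and each changes a residue. Of all stretches of 100 bases in the transcripts, 80.0% of those of Tgtp1 occurred in Tgtp2 and 96.6% of those of Gvin1 in Gm4070. Of the 45 pairs of members only 1 other, Igtp and Irgm2, shared any such stretch (4.42% of those of Igtp).

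Gvin1 had 2921, 1669 and 3419 counts with vehicle and 1557, 1541 and 1101 with BML-260, and Gm4070 had 2894, 1681 and 3401 against 1547, 1558 and 1105. The ratio of the 2 stayed between 0.989 and 1.01 in all 6 libraries. How reads that fit both genes were assigned is not given in the sources used here, so the pair is best read as a single measurement. Tgtp1 had 635, 280 and 932 counts with vehicle and 256, 200 and 133 with BML-260, and Tgtp2 had 772, 315 and 988 against 286, 240 and 193. Their ratio ranged from 0.689 in BML-260 replicate 3 to 0.943 in vehicle replicate 3. With each pair summed, the log2 fold change was -1.44 for Tgtp1 and Tgtp2 and -0.82 for Gvin1 and Gm4070, and 6 of the 8 resulting genes passed the fold and p threshold. In that fit 929 of all 16186 genes passed it in either direction.

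**Figure D3:**
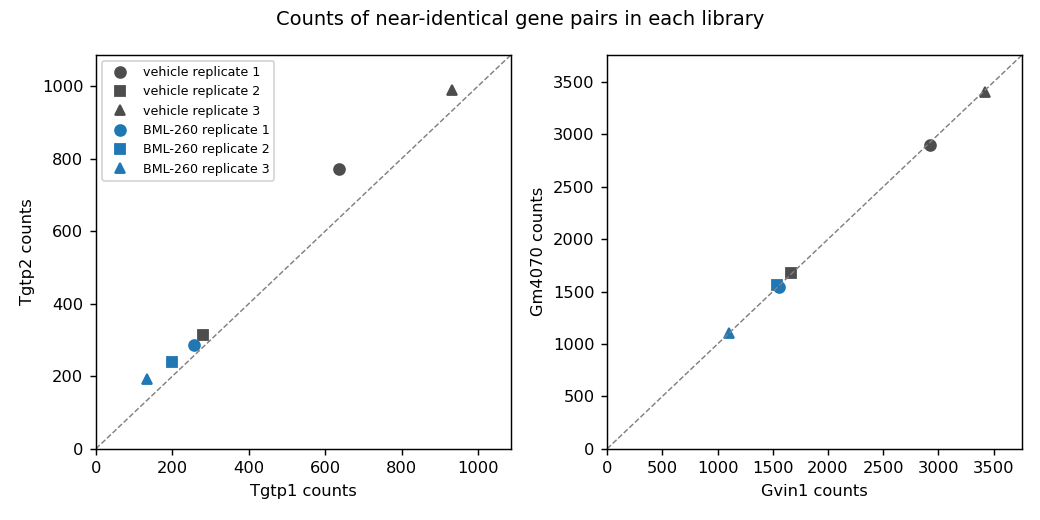
Counts of Tgtp1 against Tgtp2 (left) and of Gvin1 against Gm4070 (right) in each of the 6 libraries, on linear axes, with the line of equal counts dashed. The Gvin1 and Gm4070 points lie on the line in every library, and Tgtp2 lies above Tgtp1 in every library.

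The other IRG, GBP and very large GTPase genes, counted with the 2 Mx dynamin-like GTPases, are not members. Their lists were also chosen with earlier results of these data known, so their counts are a description. Of the 27 in the count table, 23 were tested. At the fold and p threshold 13 of the 23 were lower and 0 were higher with BML-260, where 4.86% of all genes were lower, with a median log2 fold change of -0.77. At an adjusted p under 0.05 edgeR called 0 of the 23, 13 had an unadjusted p under 0.05, and DESeq2 called 2 at an adjusted p under 0.05. Without vehicle replicate 3, 12 of the 23 were lower at the fold and p threshold, where 482 of all 16502 genes were. In CPM the BML-260 libraries were all below the vehicle libraries for 13 of the 23, against 6.91% of all genes.

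All 8 other GBP genes tested had a negative log2 fold change. At the fold and p threshold 7 of the 8 were lower, where 4.86% of all genes were. Gbp4 stood at 13.6, 12.1 and 24.8 CPM with vehicle and 7.04, 6.08 and 7.78 CPM with BML-260, a log2 fold change of -1.27 (SE 0.28), or -0.88 without vehicle replicate 3, with no overlap. Gbp3 stood at 8.99, 7.78 and 9.89 CPM against 5.23, 5.57 and 5.94 CPM, a log2 fold change of -0.67 (SE 0.16), also with no overlap. Gbp5, Gbp8 and Gbp9 were lower without overlap (log2 fold changes -0.60, -1.25 and -0.46), Gbp6 and Gbp10 were lower with overlap (-0.78 and -0.78, or -0.29 and -0.38 without vehicle replicate 3), and Gbp11 was not called (-1.15, SE 1.27). Without vehicle replicate 3 the count was 3 of 8, where 482 of all 16502 genes were lower, and without any single BML-260 library it was 4 of 8.

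The other IRG genes were more mixed. All 9 tested carried the lysine in the P-loop, whether or not they passed the threshold. Ifi47, an effector gene with a lysine P-loop that lies near Tgtp2, stood at 4.19, 1.82 and 4.27 CPM with vehicle and 1.50, 1.28 and 1.03 CPM with BML-260 (log2 fold change -1.43, SE 0.36). Gm4951, with a lysine P-loop as well, stood at 2.26, 2.12 and 2.92 CPM against 1.02, 0.704 and 0.897 CPM (log2 fold change -1.48, SE 0.28). In both genes the groups did not overlap. These were the only 2 of 9 tested IRG genes past the threshold, where 4.86% of all genes were lower. Without vehicle replicate 3 the count was 5 of 9, where 482 of all 16502 genes were lower.

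Several IRG genes did not follow the members among the vehicle libraries. F830016B08Rik, the most abundant IRG gene, stood at 25.3, 63.3 and 22.9 TPM with vehicle and 27.6, 31.8 and 22.6 TPM with BML-260, so the groups overlapped (log2 fold change -0.38, SE 0.47). Gm4841 stood at 7.53, 13.6 and 0.624 TPM against 7.85, 4.69 and 3.82 TPM, with its lowest value in the vehicle library where the 10 members were highest in TPM. Gm12185, whose promoter holds the same GAS and ISRE spacing as Tgtp1, stood at 0.622, 1.34 and 0.226 TPM against 0.421, 0.249 and 0.228 TPM, with overlap. For Gm4841 and Gm12185 the log2 fold changes were -0.39 (SE 0.87) and -1.20 (SE 0.68). Irgq, a distant relative, was at 5.66, 6.08 and 7.08 TPM with vehicle and 5.38, 6.69 and 6.58 TPM with BML-260.

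All 4 other very large GTPase genes tested (Gm1966, Gm8979, Gm8989 and Gm8995) were lower, with log2 fold changes from -1.26 for Gm1966 (-0.80 without vehicle replicate 3) to -0.64 for Gm8995 and no overlap. With all 6 libraries all 4 passed the threshold, where 4.86% of all genes were lower, and 6.91% of all genes had no overlap in that direction. Gm8989 was not called without vehicle replicate 1, BML-260 replicate 2 or BML-260 replicate 3, so that 3 to 4 passed with single libraries left out. Gm8979 and Gm8989 are annotated as transcribed pseudogenes, and reads shared with Gvin1 could not be separated here. Of the interferon-induced dynamin-like GTPases, Mx1 (log2 fold change -0.43, SE 0.49) and Mx2 (0.21, SE 0.51) were under 1 CPM in every library, and edgeR, DESeq2 and limma called 0 of the 2 at the threshold, with 0 at an unadjusted p under 0.05 in edgeR.

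**Figure D4:**
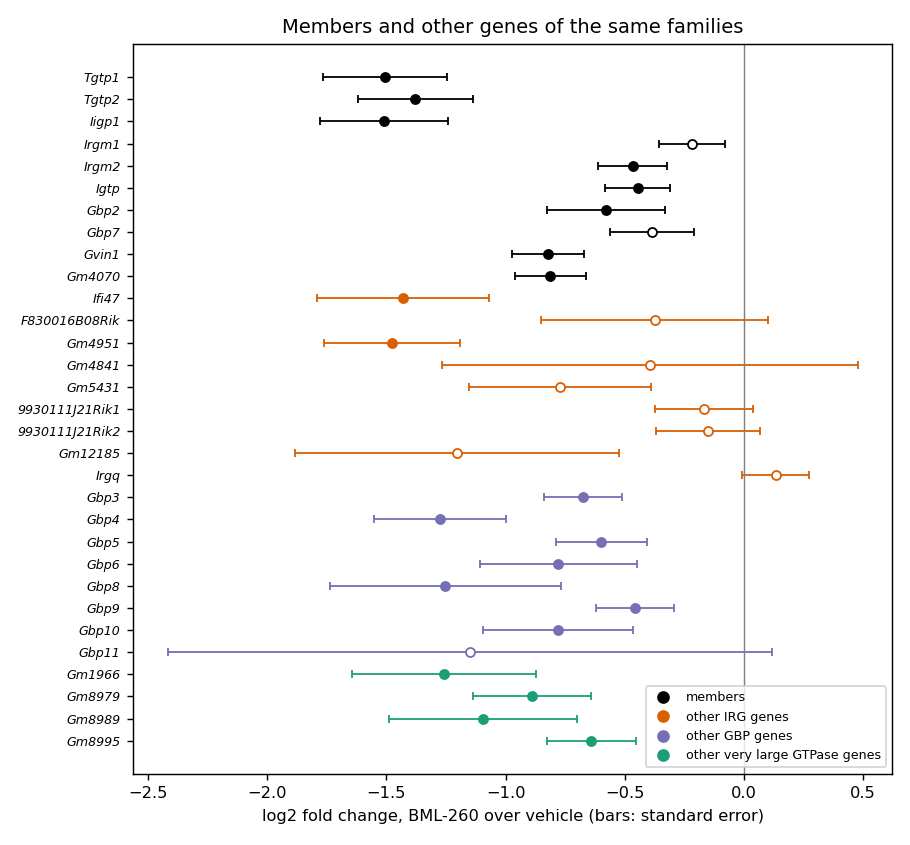
Log2 fold change, BML-260 over vehicle, with SE, for the 10 members (black) and the other tested IRG, GBP and very large GTPase genes. Filled points passed a fold of 1.3 with an unadjusted p under 0.05, which 7 of 8 other GBP genes, 2 of 9 other IRG genes and 4 of 4 other very large GTPase genes did.

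Upstream of the GTPases, the ligands were at the limit of detection. Ifng, which encodes interferon gamma, had 2 counts in vehicle replicate 2 and 0 in the other 5 libraries. Of the 21 interferon genes in the count table, 18 had no count in any library, and none was tested. Of the receptors, 0 of 5 passed the threshold by edgeR or DESeq2 and 1 by limma, with 0 at an unadjusted p under 0.05 in edgeR. Ifngr1 and Ifngr2, the 2 chains of the interferon gamma receptor, had log2 fold changes of -0.25 (SE 0.15) and 0.50 (SE 0.27), with overlapping groups. Ifngr2 passed as higher without vehicle replicate 1 (0.83), and Il10rb, a shared receptor chain, passed as lower without BML-260 replicate 1 (-0.73).

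The kinases and factors that carry the signal showed no call with all 6 libraries. Of Jak1, Jak2, Tyk2, Stat2 and Irf9, 0 of 5 passed the threshold by edgeR, DESeq2 or limma, with 0 at an unadjusted p under 0.05 in edgeR. Without vehicle replicate 1, 1 of the 5 (Jak2) passed as higher. Irf9 had a log2 fold change of -0.20 (SE 0.19). Irf1, the factor that many GTPase promoters depend on, stood at 10.4, 6.08 and 10.97 CPM against 7.38, 6.21 and 6.89 CPM, so vehicle replicate 2 lay below the BML-260 libraries (log2 fold change -0.42, SE 0.23, or -0.65 without vehicle replicate 2). Irf8, a myeloid factor, had a log2 fold change of -0.33 (SE 0.22).

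Of the 7 regulatory factors and coactivators tested, only Nlrc5 passed the threshold in edgeR, where 4.86% of all genes were lower. Nlrc5, the coactivator of MHC class I genes, stood at 4.13, 3.85 and 4.89 CPM with vehicle and 2.54, 2.304 and 3.11 CPM with BML-260, without overlap (log2 fold change -0.70, SE 0.22). Without vehicle replicate 2 or 3, 2 of the factors passed. Of 8 signalling inhibitors, Socs3 was the only one past the threshold, beside the same 4.86% of all genes. It stood at 4.64, 3.27 and 38.7 CPM against 1.59, 1.88 and 3.59 CPM, highest by far in vehicle replicate 3 and with overlapping groups. Its log2 fold change was -2.74 (SE 0.90) with all libraries and -0.76 without vehicle replicate 3, and its call was lost without BML-260 replicate 1 or 2. Socs1, the main brake on interferon gamma signalling, was under 0.4 CPM in every library and was not called (log2 fold change -1.08, SE 0.53). Of 11 ATG conjugation genes that guide GTPase loading, 0 passed in edgeR, with 0 at an unadjusted p under 0.05, and 1 in each of DESeq2 and limma, and edgeR called 1 without vehicle replicate 3 and up to 2 (without vehicle replicate 2) with single libraries left out.

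Other genes that interferon gamma induces were lower in part. Of 13 tested, 12 had a negative log2 fold change, and the median was -0.49. At the fold and p threshold 5 were lower, where 4.86% of all genes were, and 0 were higher. The 5 included Cxcl10, a chemokine (-2.46, SE 0.65, or -1.83 without vehicle replicate 3), and Cd274, which encodes PD-L1 (-0.81, SE 0.21). The others were Tap1, a peptide transporter (-0.75, SE 0.33), Psmb8, an immunoproteasome subunit (-0.62, SE 0.20), and B2m, the MHC class I light chain (-0.53, SE 0.14). B2m stood at 68.0, 56.6 and 62.3 CPM with vehicle and 46.5, 40.5 and 42.7 CPM with BML-260, without overlap. Tap1 overlapped between the groups, was at -0.53 without vehicle replicate 3, and lost its call in 4 of the 6 fits that leave out a library (without vehicle replicate 1 or 3 or BML-260 replicate 1 or 2). The count over the 13 ranged from 3, without BML-260 replicate 2, to 7, without vehicle replicate 2.

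The type I interferon targets showed both directions. Of 17 tested, 10 had a negative and 7 a positive log2 fold change in edgeR, with a median of -0.07. At the fold and p threshold edgeR called 2 lower, where 4.86% of all genes were, and 0 higher. DESeq2 called 2 lower and 1 higher, and limma 3 lower. Zbp1, a nucleic acid sensor, stood at 0.801, 0.523 and 0.829 CPM with vehicle and 0.371, 0.320 and 0.264 CPM with BML-260 (log2 fold change -1.17, SE 0.41). Its call was lost without vehicle replicate 1 or 3 or BML-260 replicate 2 or 3, at log2 fold changes of -1.17 to -1.05. Oas2, an oligoadenylate synthetase, had a log2 fold change of -1.04 (SE 0.31). Among the genes not called, Isg15 was at 0.588 (SE 0.45), Ifit3 at 0.06 (SE 0.20) and Rsad2 at -0.32 (SE 0.28) on the log2 scale. Leaving out single libraries gave counts from 1, without BML-260 replicate 2, to 4, without BML-260 replicate 1. The difference between the type I and type II lists was not tested.

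**Figure D5:**
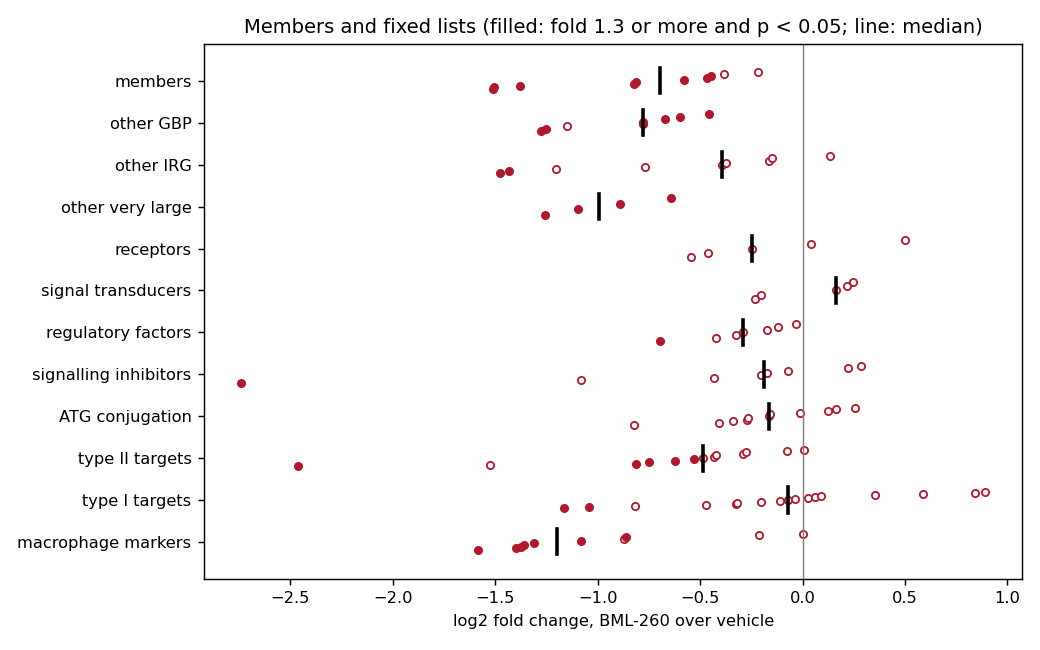
Log2 fold change, BML-260 over vehicle, of each tested gene in the members, the other family genes, the interferon pathway lists and the macrophage markers. Filled points passed a fold of 1.3 with an unadjusted p under 0.05, and the vertical line is the median of each list, -0.70 for the members, 0.16 for the signal transducers and -1.20 for the macrophage markers.

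Markers of macrophages and neutrophils were lower in the same libraries as the members. Of 10 macrophage markers, 7 were lower at the fold and p threshold, where 4.86% of all genes were, and 0 were higher. The median log2 fold change of the 10 was -1.20. Their summed level was 131, 137 and 374 CPM with vehicle, the last in vehicle replicate 3, and ran from 82.0 to 99.5 CPM with BML-260. Adgre1, which encodes F4/80, stood at 7.60, 7.56 and 8.08 CPM against 4.30, 2.47 and 4.20 CPM, while Cd68 overlapped between the groups (log2 fold change 0.0018). Without vehicle replicate 3, 6 of 10 were lower at the threshold, where 482 of all 16502 genes were, and the median of the 10 was -0.59. Without BML-260 replicate 2, 4 of 10 passed. Of 7 neutrophil markers the 4 tested were all lower, with a median log2 fold change of -4.90, or -3.47 without vehicle replicate 3. All 7 summed to 7.62 to 194 CPM with vehicle and 1.90 to 3.75 CPM with BML-260. The other 3 came almost wholly from vehicle replicate 3: Ly6g had 32 counts there and 0 in the other 5 libraries, Camp had 494 and 0, and Ngp had 1036 there, 8 in vehicle replicate 1 and 0 in the other 4. The part of these cells in the GTPase values was not tested.

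Markers of T and NK cells, which are the usual source of interferon gamma, were close to 0. None of the 11 was tested, and their sum was 0.431 to 1.38 CPM with vehicle and 0.422 to 0.661 CPM with BML-260. The sums of dendritic cell markers were 9.01 to 11.3 CPM and 8.28 to 11.7 CPM, those of endothelial markers 171 to 195 CPM and 152 to 193 CPM, and those of fibroblast markers 538 to 890 CPM and 506 to 863 CPM. B and plasma cell markers summed to 10.2 to 54.1 CPM and 34.4 to 45.6 CPM. Over all genes edgeR called 4.86% as lower and 0.896% as higher at the threshold. At the threshold edgeR called Col1a1 among 6 fibroblast markers (log2 fold change -0.43, or -0.31 without vehicle replicate 3, a call lost in 4 of the 6 fits that leave out a library) and 0 of 4 dendritic cell, 0 of 7 endothelial and 0 of 4 B and plasma cell markers, with 0 of these at an unadjusted p under 0.05, and DESeq2 and limma called 0 of them. With single libraries left out, edgeR called up to 2 of the B and plasma cell markers (without vehicle replicate 2) and 1 endothelial marker (Vwf, -0.59, without BML-260 replicate 3). The muscle identity of the tissue was plain in every library, where Ckm, the muscle creatine kinase, ran from 7388 to 19860 CPM, and edgeR, DESeq2 and limma called 0 of 8 muscle fiber markers, with 0 at an unadjusted p under 0.05 in edgeR.

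The genes whose levels over the 6 libraries were most like the mean standardized level of the members were Vav3, Zbp1, Bola2, Sgip1 and Cep192, with Pearson r from 0.977 to 0.985. These are the 5 highest of all tested genes, over libraries that share the group difference, and are a description. Zbp1 is the only one of them on a fixed interferon list. Vav3, a guanine nucleotide exchange factor, stood at 5.75, 5.03 and 5.74 CPM with vehicle and 4.49, 4.52 and 4.12 CPM with BML-260.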

How the data were processed

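RNA of TA muscle was made into stranded total RNA libraries. The submitters' processing notes name Trimmomatic 0.38, HISAT2 2.1.0, StringTie 2.1.3b, Bowtie2 2.3.4.1 and the build mm10. The authors deposited raw counts per gene for 45777 genes in all 6 libraries, and TPM values, scaled for length and library total by the authors, for 16800 genes per library. Strand handling and the treatment of multi-mapped reads are not given in the sources used here.

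The counts were tested with edgeR 4.0.16 (R 4.3.3) in these steps: filterByExpr, TMM scaling, the quasi-likelihood test of BML-260 against vehicle over 16188 genes, and Benjamini-Hochberg adjustment. CPM are TMM-scaled, and SE is that of the log2 fold change. Comparisons of levels between genes used TPM. The alternatives were RLE scaling, no filter, at least 10 counts in every library, DESeq2 1.42.0 without and with apeglm 1.24.0, limma 3.58.1 on log2(TPM + 1) and log2(TPM + 0.1), a replicate block, leaving out each library and summing near copies. The fits were tested on simulated data. Figures used matplotlib 3.10.9.

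The members and gene lists were chosen with earlier results of these data known. The genes named are all members, the genes of each fixed list past a fold of 1.3 with p under 0.05 (or the 2 with the smallest p), Ifng, Ifngr1, Ifngr2, Irf1, Irf8, Irf9 and the 5 genes most like the members. Of the genes that this rule names, 1 is not reported here and was left out of its list. Some genes called at the threshold are given as counts only, and other genes named (Mx1, F830016B08Rik, Gm4841, Gm12185, Gbp11, Socs1, Isg15, Ifit3, Rsad2, Cd68 and others not called) were chosen after their values were seen. Positions are those of RefSeq GRCm38.p6, the same build as mm10.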

Additional observations from a re-analysis of the deposited data

How the results depend on the processing

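All 10 members were lower with BML-260 with edgeR and in all 15 alternatives, though the shrunken values of apeglm were close to 0 for 6 of them. Members at an adjusted p under 0.05 numbered 0 with edgeR and 5 with DESeq2, whose adjusted p-values apeglm keeps, and 0 in each of the other alternatives. Members at the fold and p threshold numbered 8 with edgeR, 4 after apeglm shrinkage, and 6 to 8 with single libraries left out. The median log2 fold change of the members was -1.54e-05 after apeglm shrinkage, -0.80 with limma on log2(TPM + 0.1), -0.52 with the near copies summed, where 8 genes remained, and -0.85 to -0.65 with single libraries left out. The TPM scale itself moved the median over all genes to -0.09 with a pseudocount of 1 and -0.14 with 0.1. Other family genes (with Mx1 and Mx2) at the threshold numbered 13 with edgeR, 1 after apeglm shrinkage, 6 and 8 with limma at pseudocounts of 1 and 0.1, over 21 genes, and 9 to 13 with single libraries left out. The cause was not tested.

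Replicate numbers were shared by the groups, but same-numbered libraries correlated at 0.162, 0.054 and 0.110 in their deviations from the group means, so the numbers were not taken as pairs. With the replicate block the median was -0.66, 7 members and 11 other family genes passed the threshold and 0 members passed an adjusted p under 0.05. With 3 libraries in each group, the small difference of Irgm1 was not called (log2 fold change -0.22, SE 0.14). Its fold of 0.860 fell short of a 1.3-fold difference, and its unadjusted p in edgeR's quasi-likelihood test was 0.157. The vehicle spread from lowest to highest in TPM was 1.35 times for Irgm1 and reached 2.99 times for Gbp2. Why Irgm1 differed less than the other members was not tested.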
